A study of Drosophila melanogaster with 8 samples.

Results

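The alkaline phosphatase family was followed here through 10 listed Drosophila melanogaster genes, Alp1, Alp2, Alp4, Alp6, Alp7, Alp8, Alp9, Alp10, Alp12 and Alp13, in preparations enriched for enterocytes, the absorptive cells of the midgut. They were found by matching FlyBase gene IDs to symbols, and 6 of the 10 had a row among the 9177 genes of the count table: Alp2, Alp4, Alp6, Alp9, Alp10 and Alp13. Alp1, Alp7, Alp8 and Alp12 were not analysed here. The family was selected on the measured levels of Alp10 and Alp4, which were lower than control in earlier results of the same libraries, so the values of its genes against control, and the calls that go with them, are given as a description and support nothing.

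Alkaline phosphatases are zinc-dependent enzymes that release phosphate from many phosphorylated substrates, usually outside the cell. In animals they are commonly tethered to the outer face of the plasma membrane by a glycosylphosphatidylinositol (GPI) anchor, and in the mammalian intestine the enzyme is a classical marker of the brush border, the microvillar surface through which enterocytes absorb nutrients. In the fly, Alp4 is known from the Malpighian tubule, the renal organ that joins the gut next to the midgut, and from the brain.

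There were 2 Ctrl, 3 SvbAct and 3 RNAiSvb libraries from posterior midguts (regions R3 to R5) of virgin females aged 9 days. Every fly carried MyoIA-Gal4, UAS-GFP and tubGal80TS, each over a second chromosome without it, so that UAS transgenes came on in enterocytes after a shift to 29 °C at 3 days of age and stayed on for 6 days. SvbAct flies also carried UAS-SvbACT::GFP, a constitutive activator form of the transcription factor Shavenbaby (Svb), which the ovo gene encodes. RNAiSvb flies carried UAS-SvbRNAi, a hairpin against the same gene. Ctrl flies came from a cross to Canton-S and carried no UAS-Svb transgene, so that a transgene and the parental stock it came from cannot be told apart in comparisons with Ctrl. The strain label places UAS activity in intestinal stem cells, whereas the genotype and the growth protocol name the enterocyte driver. Guts of a batch of females were pooled for each library, digested and passed over a strainer that retained patches of enterocytes, after the Malpighian tubules and hindgut had been removed.

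Total counts ran from 15450011 to 23748649 per library. As a check of the labels, ovo had 9 and 2 counts in Ctrl and 868, 1189 and 762 in SvbAct, but 40, 26 and 61 in the libraries labelled RNAiSvb, so that a knockdown was not seen in these counts and no direction here rests on one. The 10 listed enterocyte markers were all measured, with a summed level of 12770 to 17020 CPM per library (counts scaled to a common library total, with TMM factors that correct for differences in RNA composition). Summed levels were 430 to 1126 CPM for the 3 copper cell region markers, 313 to 465 CPM for the 10 enteroendocrine markers and 182 to 1209 CPM for the 9 visceral muscle markers. They were 70.7 to 159 CPM for the 2 measured of 4 listed progenitor markers, 30.5 to 88.5 CPM for the 1 measured of 3 hindgut markers and 2.10 to 7.22 CPM for the 4 measured of 5 markers of fat body and follicle cells. Of the 10 enterocyte markers, nub was higher (1.21, SE 0.20, edgeR adjusted p 0.0107) and lambdaTry lower (-0.83, SE 0.20, edgeR adjusted p 0.0482) in SvbAct against Ctrl on the log2 scale. The marker alphaTry was lower in SvbAct against the libraries labelled RNAiSvb (-0.87, SE 0.21, edgeR adjusted p 0.0376). In RNAiSvb against Ctrl, SvbAct against Ctrl and SvbAct against RNAiSvb, edgeR called 1.36%, 3.44% and 6.26% of all genes. In the same order, 2, 6 and 4 of the 10 markers had an unadjusted edgeR p under 0.05. DESeq2's Wald test called 1, 4 and 4 of them, beside 4.0%, 7.3% and 12.0% of all genes. In the other lists, the edgeR calls were those of Sox21a and Dh31. Sox21a, a progenitor transcription factor gene, was higher in SvbAct by 3.78 (SE 0.66, edgeR adjusted p 0.012) against Ctrl and by 3.25 (SE 0.53, edgeR adjusted p 0.00703) against the libraries labelled RNAiSvb on the log2 scale. The enteroendocrine hormone gene Dh31 was lower in the libraries labelled RNAiSvb (-2.14 against Ctrl, SE 0.30, edgeR adjusted p 0.00629) and 2.37 higher in SvbAct than there (SE 0.28, edgeR adjusted p 0.00136). The part of these marker genes in the results for the phosphatases was not tested. In bulk samples like these, fewer cells of a type and less RNA per cell cannot be told apart.

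Alp10 and Alp9 were high in both Ctrl libraries and low in all 6 others. They form a divergent pair on chromosome 3L in dm6 coordinates (Ensembl annotation BDGP6.54). Alp10 (FBgn0035619, minus strand, 5592741 to 5595272) and Alp9 (FBgn0035620, plus strand, 5595542 to 5597422) have annotated starts 269 bases apart, and neither overlaps an exon of another gene.

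Alp10 stood at 556 and 621 CPM in the 2 Ctrl libraries, at 75.1, 63.8 and 67.2 CPM in the libraries labelled RNAiSvb, and at 46.9, 107 and 65.8 CPM in SvbAct. The lowest Ctrl library was thus above every other library, and the 2 transgene groups overlapped. The group means were 588 ± 46.2 CPM (SD, n = 2), 68.7 ± 5.77 CPM (SD, n = 3) and 73.3 ± 30.9 CPM (SD, n = 3). The fitted log2 fold change against Ctrl was -3.10 (SE 0.29) in the libraries labelled RNAiSvb and -3.01 (SE 0.29) in SvbAct, that is 8.56-fold and 8.03-fold lower. Both comparisons share the same 2 Ctrl libraries. Under every alternative run, including each library left out in turn, these estimates lay between -3.18 and -2.99 and between -3.38 and -2.76.

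Alp9 had the same shape. It stood at 455 CPM in each of the 2 Ctrl libraries, at 93.5, 86.8 and 40.6 CPM in the libraries labelled RNAiSvb and at 52.2, 91.2 and 59.4 CPM in SvbAct. The Ctrl libraries again lay above all others, with no overlap. The fitted log2 fold changes against Ctrl were -2.63 (SE 0.34) and -2.75 (SE 0.34), that is 6.18-fold and 6.74-fold lower, and ranged from -2.82 to -2.34 and from -3.03 to -2.54 over the alternatives.

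The balance between the neighbours can be read within a library, without any scaling. The ratio of Alp9 to Alp10 counts was 0.819 and 0.733 in Ctrl, 1.24, 1.36 and 0.604 in the libraries labelled RNAiSvb, and 1.11, 0.850 and 0.902 in SvbAct. The ratio varied most within the RNAiSvb group, where replicate 3 was below both Ctrl libraries and the others above them.

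**Figure D1:**
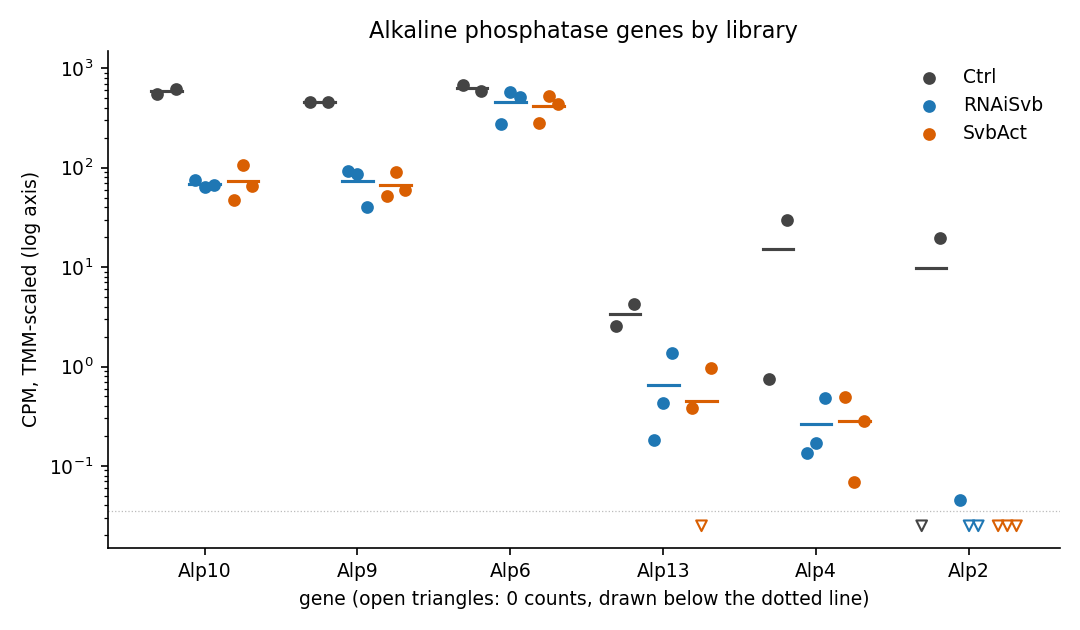
TMM-scaled CPM (log axis) of the 6 measured alkaline phosphatase genes in each library, with points for libraries, bars for group means and open triangles for 0 counts. Alp10 and Alp9 sat at 455 to 621 CPM in Ctrl and at 107 CPM or less elsewhere, while Alp4 and Alp2 were high in 1 Ctrl library.

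Alp6 (FBgn0033423, chromosome 2R, 9561638 to 9563871, plus strand) was the most abundant of the 6 in the libraries with a transgene and moved less. It stood at 679 and 589 CPM in Ctrl, at 276, 572 and 518 CPM in the libraries labelled RNAiSvb and at 283, 530 and 432 CPM in SvbAct. The Ctrl libraries did not overlap the others, but the closest libraries, 572 CPM in RNAiSvb replicate 2 and 589 CPM in Ctrl replicate 2, were nearer to each other than the replicates within any group. The log2 fold changes against Ctrl were -0.48 (SE 0.32) and -0.61 (SE 0.32). All 1686 exon bases of Alp6 are overlapped by asRNA:CR45281 on the other strand. Strand handling is not given in the sources used here, so whether the counts of Alp6 hold reads of the antisense gene was not tested. Each gene had counts of its own in every library, 5125 to 13383 for Alp6 and 313 to 1505 for the antisense gene. That gene had a level of 32.9 ± 4.15 CPM in Ctrl (SD, n = 2), 30.6 ± 18.1 CPM in the libraries labelled RNAiSvb and 52.4 ± 32.1 CPM in SvbAct (SD, n = 3 each).

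Compared per length of exon, the levels in Ctrl fell into an abundant set and a scarce set. Alp6 had 376 ± 37.5 CPM per kb (SD, n = 2) and Alp10 had 336 ± 26.4 CPM per kb, with overlapping libraries, while Alp9 followed at 242 CPM per kb. The scarce genes were Alp4 and Alp2, whose means of 6.25 and 5.52 CPM per kb rested on 1 library, and Alp13 at 2.29 ± 0.791 CPM per kb. In the libraries labelled RNAiSvb, Alp6 had 270 ± 93.4 CPM per kb, and Alp10 and Alp9 had 39.3 ± 3.30 and 39.1 ± 15.3 CPM per kb (SD, n = 3 each). In SvbAct the same genes had 246 ± 73.9, 41.9 ± 17.7 and 35.9 ± 11.03 CPM per kb. Alp10 and Alp9, which overlapped each other in both transgene groups, had thus moved from near the level of Alp6 to well below it.

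The summed level of the 6 genes was 1693 and 1719 CPM in Ctrl, 445, 723 and 627 CPM in the libraries labelled RNAiSvb, and 383, 728 and 559 CPM in SvbAct. Alp10 and Alp9 together made up 59.7% and 62.6% of the counts of the 6 genes in Ctrl. Their share was 37.9%, 20.8% and 17.2% in the libraries labelled RNAiSvb and 25.9%, 27.2% and 22.4% in SvbAct. Most counts of these 6 genes in Ctrl therefore came from the divergent pair, and most in the other groups from Alp6, whose share was 62.0% to 82.5% there. With the counts of Alp5, a family gene outside the 10, in the total, the share of the pair was 39.7% and 44.8% in Ctrl, 17.4%, 11.4% and 7.82% in the libraries labelled RNAiSvb and 13.9%, 16.6% and 11.9% in SvbAct, so that it was again higher in Ctrl but no longer most of the counts.

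**Figure D2:**
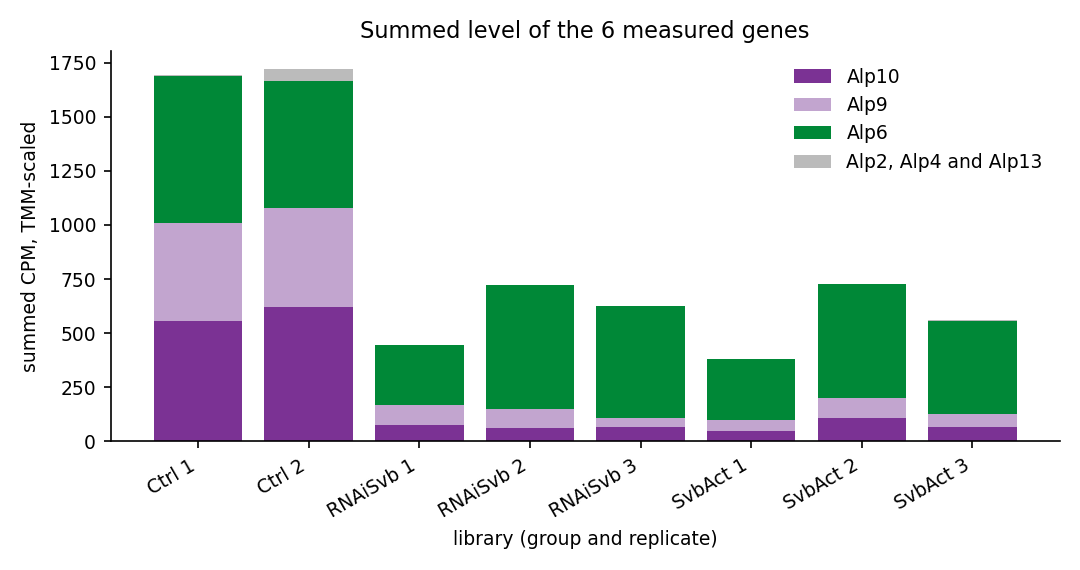
Summed TMM-scaled CPM of the 6 measured genes in each library, stacked by gene. Both Ctrl libraries reached 1693 CPM or more and no other library exceeded 728 CPM, and Alp10 and Alp9 made up most of the difference.

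Alp13 (FBgn0037786, chromosome 3R, 10073821 to 10075373, minus strand) was scarce throughout. It had 48 and 70 counts in Ctrl, 4, 10 and 28 in the libraries labelled RNAiSvb, and 7, 0 and 17 in SvbAct. At this depth, 0 counts allow up to 0.209 CPM in that library (3 counts), a limit that covers counting error only. Ctrl was higher than all other libraries, at 3.40 ± 1.17 CPM (SD, n = 2) against 0.654 ± 0.618 CPM and 0.452 ± 0.488 CPM (SD, n = 3 each). The log2 fold changes were -2.37 (SE 1.05) and -2.86 (SE 1.09).

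Alp4 and Alp2 were high in Ctrl replicate 2 and in no other library. Alp4 (FBgn0016123, chromosome 3R, 31048929 to 31052540, plus strand) had 14 and 487 counts in Ctrl, 3, 4 and 10 in the libraries labelled RNAiSvb, and 9, 1 and 5 in SvbAct. Alp2 (FBgn0283480, chromosome 2R, 22206005 to 22207987, minus strand) had 0 and 322 counts in Ctrl, 1, 0 and 0 in the libraries labelled RNAiSvb, and 0 in each of the 3 SvbAct libraries. In Ctrl replicate 1 the 0 counts of Alp2 allow up to 0.160 CPM, against 19.4 CPM in Ctrl replicate 2. Each gene thus differed more between the 2 Ctrl libraries than Ctrl replicate 1 differed from the other groups.

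The fitted log2 fold changes of Alp4 against Ctrl were -5.82 (SE 1.21) in the libraries labelled RNAiSvb and -5.65 (SE 1.22) in SvbAct. Without Ctrl replicate 2 they were -1.49 and -1.36. No fold is given for Alp2, which did not pass the filter on low counts. An exon of Alp4 overlaps mir-4948 on the other strand by 106 bases.

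Of 12 listed genes of the Malpighian tubule, 2 had the pattern of Alp4 and Alp2. In all 5 were measured, Irk1, salt, Oatp58Dc, SecCl and tsh, and the others, among them Uro and Irk3, were not analysed here. The gene salt had 0 and 86 counts in Ctrl, 0 in each library labelled RNAiSvb, and 0, 1 and 2 in SvbAct. Oatp58Dc, an organic anion transporter gene, had 0 and 43 counts in Ctrl, 0 in each library labelled RNAiSvb, and 0, 8 and 0 in SvbAct. Both were therefore highest in the same Ctrl library as Alp4 and Alp2.

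Irk1, SecCl and tsh were present in all 8 libraries, and the summed level of the 5 genes was 102 to 107 CPM in Ctrl, 59.2 to 98.0 CPM in the libraries labelled RNAiSvb and 42.7 to 103 CPM in SvbAct. Between the Ctrl libraries tsh went the other way, with 998 and 634 counts, and Irk1 had 873 and 954 counts there but 1591 in RNAiSvb replicate 1. SecCl had 35 and 51 counts in Ctrl and 62 in RNAiSvb replicate 3, which had more counts in total (18970324 against 17628597 in Ctrl replicate 2). In scaled CPM, 3 of the 5 genes were highest in Ctrl replicate 2, namely salt, Oatp58Dc and SecCl. The part of tubule RNA in the levels of Alp4 and Alp2 was not tested. Alp10 and Alp9 did not share this split, since their Ctrl libraries stood at 556 and 621 CPM and at 455 CPM in both.

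**Figure D3:**
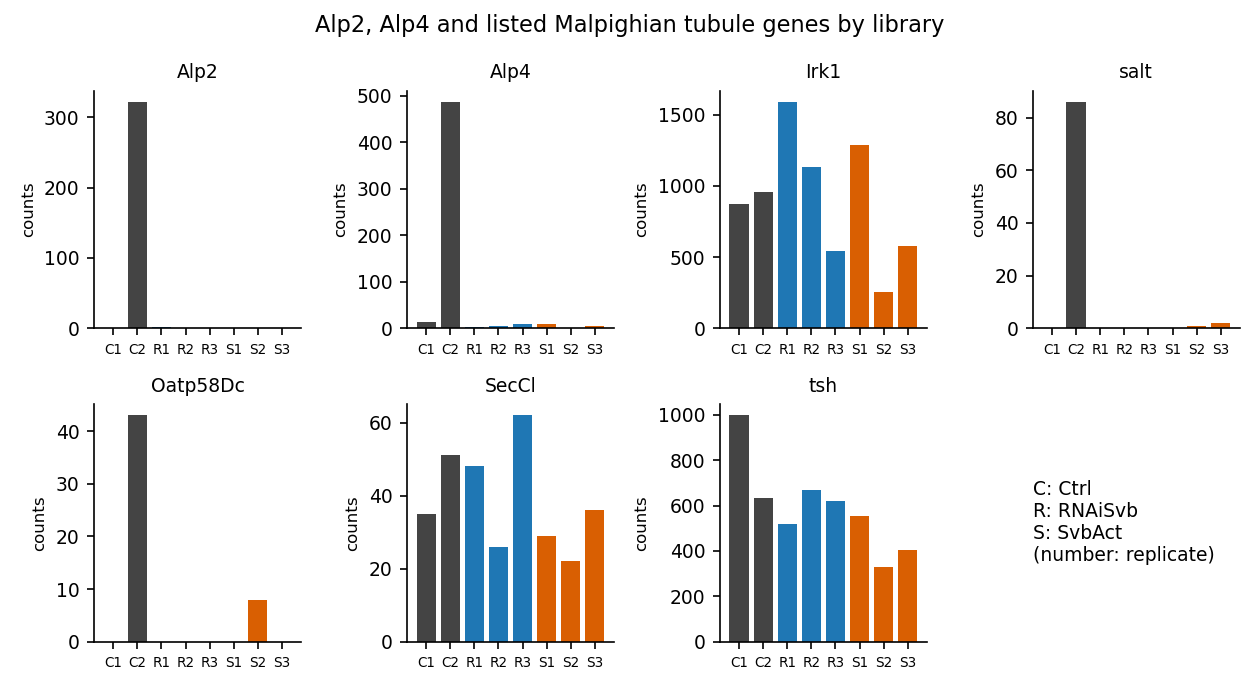
Counts of Alp2, Alp4 and the 5 measured genes of the Malpighian tubule list in each library (C for Ctrl, R for RNAiSvb, S for SvbAct, followed by the replicate number). Alp2, Alp4, salt and Oatp58Dc were highest in Ctrl replicate 2, with 322, 487, 86 and 43 counts, while Irk1, SecCl and tsh were present in every library.

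Of the 6 measured genes, 5 passed edgeR's filter on low counts and entered a quasi-likelihood fit over 8775 genes. In each comparison with Ctrl, 3 of the 5 (Alp10, Alp9 and Alp4) were past an adjusted p of 0.05, all lower, beside 1.36% of all genes called and 1.09% called lower in the libraries labelled RNAiSvb, and 3.44% called and 1.49% called lower in SvbAct. All 5 lay below both Ctrl libraries in every library of each transgene group, beside 17.0% of all genes in the libraries labelled RNAiSvb and 20.0% in SvbAct. Since these comparisons chose the family, nothing is read from the counts. Without Ctrl replicate 2, 2 of the 5 were called in each comparison, Alp10 and Alp9, while 23 and 68 genes were called in all, against 119 and 302 with it. The authors' deposited table called 4 of the 6 downregulated in each comparison, Alp2 included. The call of Alp4 in the libraries labelled RNAiSvb was lost when any single library other than Ctrl replicate 1 was left out, and in SvbAct it was lost without Ctrl replicate 2, any SvbAct library or RNAiSvb replicate 1. Without Ctrl replicate 1, 48 genes were called in SvbAct against Ctrl and 4 genes of the family in each comparison, since Alp2 then passed the filter.

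The comparison of SvbAct with the libraries labelled RNAiSvb was not the one that chose the family, although the Ctrl libraries entered its filter, scaling and estimate of the spread. It is not independent of that choice, since Alp10 was picked as low in these same libraries. Such a choice favours a small difference between the 2 transgene groups for Alp10, and for Alp9, whose profile is close. The comparison asks whether the 2 transgenes, one supplying an activator and one directed against the gene, left the phosphatase genes at different levels. Alp4 passed the filter through Ctrl alone. Alp4 and Alp13 had at most 10 and 28 counts in the transgene groups, too few to compare levels. This leaves Alp10, Alp9 and Alp6 as the genes that this comparison can speak of. None of the 3 passed the threshold, beside 6.26% of all 8775 genes (edgeR's quasi-likelihood test, Benjamini-Hochberg adjusted), and none had an unadjusted p under 0.05 or passed with DESeq2's Wald test. With the Ctrl libraries left out, these 3 were the members tested and again 0 were called, and 394 genes were called in all against 549.

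For Alp10 the log2 fold change of SvbAct against the libraries labelled RNAiSvb was 0.09 (95% interval -0.47 to 0.66, edgeR adjusted p 0.865). For Alp9 it was -0.12 (-0.79 to 0.54, edgeR adjusted p 0.844), and for Alp6 it was -0.13 (-0.77 to 0.50, edgeR adjusted p 0.822). The intervals of these 3 genes leave room for modest differences in either direction, and are narrow beside the distance of Alp10 and Alp9 from Ctrl. The distance of Alp10 helped to choose the family and Alp9 moved with it, so this contrast is a description. The intervals of Alp13 (-0.49, from -2.76 to 1.78) and Alp4 (0.17, from -2.71 to 3.05) are too wide to speak of similar levels. The sign of each of the 5 estimates turned when some single library was left out.

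**Figure D4:**
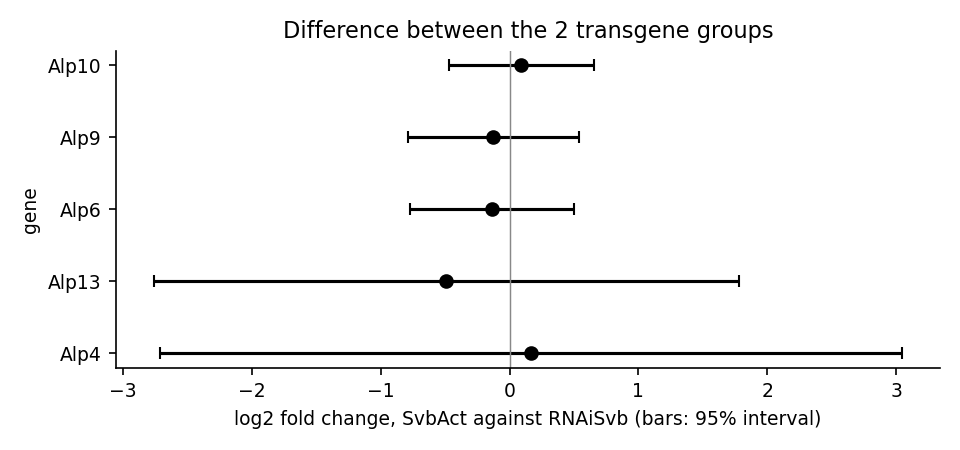
Log2 fold change of SvbAct against the libraries labelled RNAiSvb for the 5 tested genes, with 95% intervals. All intervals cross 0, and those of Alp10, Alp9 and Alp6 lie between -0.79 and 0.66 while those of Alp13 and Alp4 are several times wider.

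The surroundings of the Alp10 and Alp9 pair were then described. This window of 20 kb on each side was chosen after the values had been seen, so it carries no test. It held 9 annotated genes, 7 of them measured. The gene spo, whose Halloween-class cytochrome P450 product is known from ecdysteroid hormone synthesis, lies 169 bases beyond the end of Alp10 on the same strand (5590083 to 5592571). It had 165 and 295 counts in Ctrl, 29, 33 and 77 in the libraries labelled RNAiSvb, and 27, 25 and 48 in SvbAct, so that Ctrl again lay above all others. Its log2 fold changes against Ctrl were -2.63 (SE 0.52) and -2.74 (SE 0.53), close to those of its neighbours, and they were -2.04 and -2.15 without Ctrl replicate 2. Its level was far lower, at 13.3 ± 6.36 CPM (SD, n = 2) in Ctrl. Exons of spo and l(3)psg2 overlap by 308 bases on opposite strands.

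The flanking genes did not show such a fall. The log2 fold change of l(3)psg2 was -0.19 (SE 0.15) in the libraries labelled RNAiSvb and -0.20 (SE 0.15) in SvbAct. TM9SF3, on the other side, had -0.33 (SE 0.17) and -0.10 (SE 0.17), and Eaf6 had -0.22 (SE 0.46) and 0.16 (SE 0.46). Msr-110, the most distant, had estimates of -1.70 (SE 1.21) and -1.29 (SE 1.21) at 2.17 CPM in Ctrl, too uncertain for a direction. The 3 genes that were low together in the transgene groups, spo, Alp10 and Alp9, are consecutive on the chromosome.

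**Figure D5:**
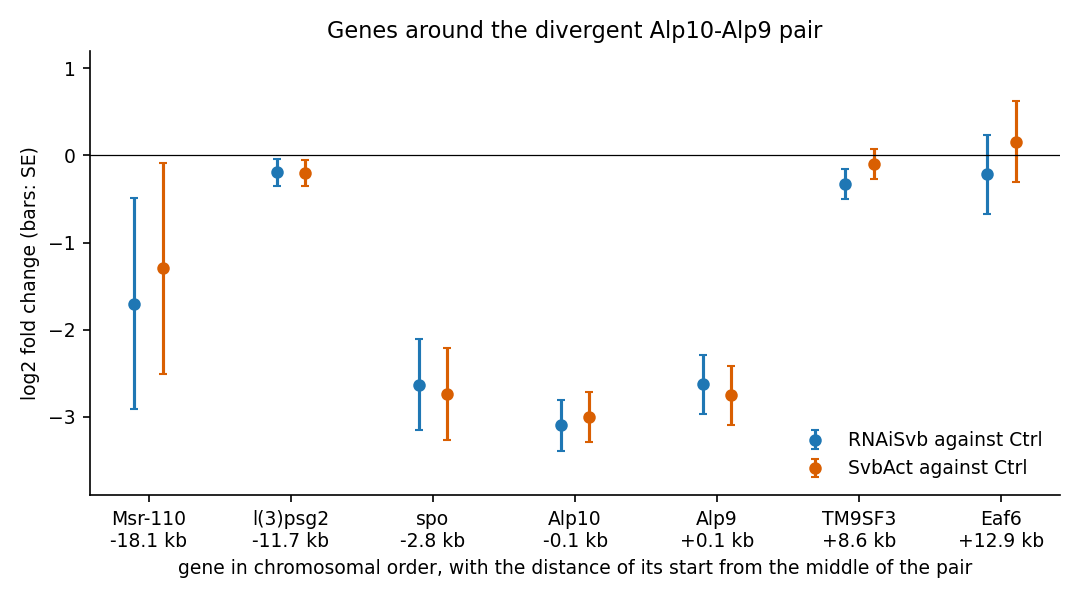
Log2 fold change against Ctrl, with SE bars, of the 7 measured genes around the Alp10 and Alp9 pair, in chromosomal order with the distance of each start from the middle of the pair in kb. The consecutive genes spo, Alp10 and Alp9 lay between -3.10 and -2.63 in both comparisons, and l(3)psg2, TM9SF3 and Eaf6 between -0.33 and 0.16.

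Likeness in pattern was measured as the root mean square difference between log2 CPM profiles, each centred on its mean over the 8 libraries. Among the genes tested, the profile closest to Alp10 was that of Alp9, at 0.37 on the log2 scale. It was followed by dpr10, an immunoglobulin-domain cell surface gene, at 0.42, and by Jon25Bii, a digestive serine protease gene, at 0.43. The genes dpr10 (280 and 388 counts in Ctrl, 29 to 86 elsewhere) and Jon25Bii (1922 and 2088 in Ctrl, 263 to 607 elsewhere) shared the high Ctrl level, and Jon25Bii belongs to a family whose members can share reads. No gene was as close to Alp4. The nearest were Cyp6a18 at 0.84, CG31272 at 1.04 and LysD at 1.08, of which 1 remained among the nearest 3 with a smaller prior count. Cyp6a18 had 19 and 288 counts in Ctrl and 0 to 1 elsewhere, and LysD had 10 and 380 in Ctrl and 0 to 15 elsewhere. CG31272 had 12 and 67 counts in Ctrl and 1 to 21 elsewhere. All 3 were thus highest in Ctrl replicate 2, like Alp4, and none of them is on the list of Malpighian tubule genes. Among the 5 tested family members the other pairs differed by 1.08 to 2.08, against 0.37 for Alp10 and Alp9.

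Alp5 and Alp11 carry the family name without being among the 10 listed genes, and were added after their values had been seen. Alp5 (FBgn0038845, chromosome 3R, 21005160 to 21006990, minus strand) was abundant, with 852 and 682 CPM in Ctrl, 525, 592 and 751 CPM in the libraries labelled RNAiSvb and 330, 469 and 497 CPM in SvbAct. Its SvbAct libraries lay below all others, and per length it had 458 ± 71.8 CPM per kb in Ctrl (SD, n = 2). Its log2 fold change was -0.83 (SE 0.23, edgeR adjusted p 0.0807) in SvbAct against Ctrl and -0.53 (SE 0.21, edgeR adjusted p 0.155) against the libraries labelled RNAiSvb, neither past the threshold, while DESeq2's Wald test (adjusted p 0.0192) and the authors' deposited table called the first. Alp11 had at most 9 counts in any library.

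Genes that work beside alkaline phosphatases were taken from fixed lists. Of all 8775 genes, edgeR called 1.36%, 3.44% and 6.26% in RNAiSvb against Ctrl, SvbAct against Ctrl and SvbAct against RNAiSvb. In the same order, DESeq2's Wald test called 4.0%, 7.3% and 12.0% of all genes. With edgeR, 1191, 1523 and 2082 genes had an unadjusted p under 0.05. Of the acid phosphatase list, which holds enzymes that release phosphate at low pH and the related Mipp genes, 6 of 8 were tested and 1 fell in each comparison with Ctrl. It was Mipp1, a multiple inositol polyphosphate phosphatase. Mipp1 stood at 290 and 302 CPM in Ctrl, at 143, 132 and 150 CPM in the libraries labelled RNAiSvb and at 121, 121 and 137 CPM in SvbAct. Its log2 fold change was -1.06 (SE 0.15, edgeR adjusted p 0.00609) in the libraries labelled RNAiSvb and -1.23 (SE 0.15, edgeR adjusted p 0.0028) in SvbAct, and without Ctrl replicate 2 the first was -1.04 and no longer past the threshold (edgeR adjusted p 0.0967). No gene of the list passed in SvbAct against the libraries labelled RNAiSvb, with 2 at an unadjusted p under 0.05 and 1 called by DESeq2's Wald test. The medians of the list against Ctrl were -0.15 and -0.58, beside 0.02 and -0.01 over all genes.

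No gene of the GPI anchor assembly list, the enzymes that build and attach the membrane anchor, passed the threshold in any of the 3 comparisons, with 23 of 28 tested and 3, 0 and 3 at an unadjusted p under 0.05 in the libraries labelled RNAiSvb against Ctrl, SvbAct against Ctrl and SvbAct against the libraries labelled RNAiSvb. DESeq2's Wald test called 0 of them, and the medians of the log2 fold changes were -0.05, -0.09 and 0.07. None of the 3 tested membrane nucleotidase genes, which release phosphate from nucleotides outside the cell, passed with either test (unadjusted p under 0.05 in 1, 2 and 1), with medians of 0.04, -0.04 and -0.00. None of the 5 tested phosphate transporter genes passed either with edgeR (0, 1 and 1 at an unadjusted p under 0.05), although DESeq2 called 1 in SvbAct against the libraries labelled RNAiSvb, with medians of 0.40, 0.31 and -0.11.

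Of the brush border list, the myosins, cadherins and scaffold proteins of the microvillar surface, 11 of 13 genes were tested. None passed against Ctrl with edgeR, with 0 and 4 at an unadjusted p under 0.05, 0 and 1 called by DESeq2, and medians of 0.11 and 0.44. Against the libraries labelled RNAiSvb, 2 of the 11 rose in SvbAct, beside 6.26% of all genes called. Moe, which links actin to the membrane, rose by 0.73 (SE 0.18, edgeR adjusted p 0.0357) and bbg, a PDZ-domain protein of the brush border, by 0.67 (SE 0.17, edgeR adjusted p 0.0425). Both calls were lost with the Ctrl libraries left out and with the replicate block (edgeR adjusted p 0.0708 and 0.089). The call of bbg was also lost when any single library was left out. That of Moe was lost without SvbAct replicate 1 or 2, without RNAiSvb replicate 2 or 3, or without either Ctrl library. In SvbAct against the libraries labelled RNAiSvb, 5 of the 11 had an unadjusted p under 0.05 and DESeq2 called 4. The median of the list there was 0.40. With edgeR, 0 of the listed brush border genes were called lower in either comparison with Ctrl. A link between this list and the levels of Alp10 and Alp9 was not tested.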

How the data were processed

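RNA was sequenced by the authors as single reads of 100 nt from libraries of posterior midgut enterocyte patches, per the labels' protocols. The deposited table holds whole-number counts per FlyBase gene for 8 libraries. The submitters' processing notes name FastQC 0.11.5, STAR 2.5.2b, HTSeq 0.6.0, edgeR and the build dm6, with no role or order. Annotation, strand handling and gene filter are not given in the sources used here. The authors' log2 fold changes and calls, per the file headers, are quoted where named. Their p-value columns were not used.

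Tests used edgeR 4.0.16 (limma 3.58.1) under R 4.3.3. The function filterByExpr left out 402 of 9177 genes and kept 8775. TMM factors and the quasi-likelihood test (glmQLFit, glmQLFTest) were applied once to the 8 libraries together, with 3 group terms and 5 degrees of freedom left, and the Benjamini-Hochberg method adjusted each of 3 comparisons at a threshold of 0.05. An SE is the absolute log2 fold change over the root of its F statistic, and intervals were derived from them. The code was tested on simulated counts. CPM per kb uses the union of annotated exons. Members and lists were chosen with earlier results of these data known. The text names all measured members, up to 4 genes of a pathway list past the threshold per comparison, and the 3 genes most like Alp10 and Alp4. Cell type lists were summed. Alternatives were other scalings, filters, tests (DESeq2 1.42.0), fits, thresholds, lengths and prior counts, and each library left out.

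No 2 libraries of a group were as alike as resampling of 1 library (lowest chi-square 62.2 per degree of freedom), so each was counted as a replicate. The labels call replicates biological and made on different days, and each pooled several guts. Sequence identity between family members was not examined, so that reads shared between members cannot be told apart from their own. No protein or promoter sequence was used here.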

Additional observations from a re-analysis of the deposited data

How the results depend on the processing

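Calls against Ctrl describe values that chose the family and are not support for it. Alp4 was called in 5 and 8 of the 16 settings in which it was tested. The number of family members called was 2 to 4 in each comparison with Ctrl when single libraries were left out, the 4 without Ctrl replicate 1, where Alp2 also entered the test, and 0 in SvbAct against the libraries labelled RNAiSvb under every setting. Over all genes, 119, 302 and 549 were called in RNAiSvb against Ctrl, SvbAct against Ctrl and SvbAct against RNAiSvb. DESeq2's Wald test called 351, 641 and 1054, and an adjusted p under 0.01 called 44, 89 and 160. Leaving out single libraries gave 23 to 141, 48 to 368 and 262 to 497, with the lowest counts without Ctrl replicate 2, Ctrl replicate 1 and SvbAct replicate 2. Library totals in place of TMM factors shifted the median over all genes in RNAiSvb against Ctrl from 0.02 to 0.13 (log2), and moved the share of calls that were higher in SvbAct against Ctrl from 56.6% to 69.9%. In SvbAct against RNAiSvb, estimates changed sign when single libraries were left out, ranging from -0.48 to 0.90 for Alp4, -0.40 to 0.081 for Alp6, -0.41 to 0.081 for Alp9, -0.29 to 0.33 for Alp10, -1.64 to 0.58 for Alp13 and -0.41 to 0.55 for spo. The cause was not tested. Fits that leave 1 Ctrl library assume that it varies like the other groups. Low counts limit what can be said of Alp13, Alp4 and Alp2.

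Replicate numbers are shared between groups, but correlations of same-numbered deviations ran from -0.065 to 0.144 over 7 pairs, so the numbers were not taken to pair libraries, and 2 of 6 libraries correlated best with their own number. With the replicate block 124, 269 and 443 genes and 2, 2 and 0 family members were called.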

Other observations

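Alp12, which was not analysed here, shares 564 exon bases with CG13085 on the same strand of chromosome 2L. It is the larger of the overlaps of Alp12 with exons of 2 other genes. CG13085 had 198 and 185 counts in Ctrl, 85, 101 and 110 in the libraries labelled RNAiSvb, and 51, 122 and 72 in SvbAct, so that both Ctrl libraries lay above all others. Its log2 fold changes against Ctrl were -1.27 (SE 0.42, edgeR adjusted p 0.211) and -1.09 (SE 0.42, edgeR adjusted p 0.218), neither past the threshold.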
